A study of Homo sapiens with 8 samples.

Results

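Collagen chain genes were examined in the transcriptome of H9, a widely used line of human embryonic stem cells, on soft (400Pa) and stiff (60kPa) gels. The genes were taken by name: every symbol made of COL, a number, A and a number that stands alone in both deposited tables. This gave 44 collagen chains, against 34690 loci listed at day 3.5 and 33575 at day 0. There were 45 such rows in each table, because COL27A1 had 2, of which the row with the higher mean was kept. Of the 44 chains, 31 reached 1 FPKM (fragments per kilobase of transcript, scaled to the mapped fragments of the group) in at least 1 group and 13 stayed under 1 FPKM in every group.

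The RNA came from 4 groups of 2 libraries each. The first group held cells on 400Pa gels at day 3.5, induced toward mesoderm progenitors with bFGF, Activin, VEGF and BMP4, and the second held cells induced in the same way on 60kPa gels. The others held undifferentiated cells (day 0) on 400Pa gels and on 60kPa gels. All cells were kept in medium conditioned by feeder cells, and total RNA was taken with TRIzol. All 8 libraries come from a single cell line.

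The deposited tables hold 1 FPKM per group and day, so each value below is a group value without a spread of its own, and the read depth is unknown. Whether the 2 libraries per group were separate cultures is not in the labels, so p-values measure no more than the spread of these libraries, and that spread may be technical. In RNA from whole cultures, fewer cells of a type and less RNA per cell cannot be told apart. The top 10 loci by FPKM took 44.9% to 52.1% of a group's total FPKM.

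Collagens are matrix proteins made of chains that wind around each other into a triple helix. Fibrillar collagens assemble into the cross-banded fibrils of connective tissue, type IV collagens form the sheet under epithelia, and type VI collagen forms beaded filaments around cells. The fibril-associated collagens (FACIT) sit on fibril surfaces, and the remaining classes anchor, span membranes or carry sugar chains. A chain is functional once it is hydroxylated, folded with its partner chains, exported, trimmed and crosslinked, so the partners and the enzymes of these steps are given along with the chains.

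At day 3.5 the collagen chains that differed between the gels were all higher on the soft gel. They were 3 fibrillar chains, COL2A1, COL3A1 and COL5A1, and 3 chains of type VI collagen, COL6A1, COL6A2 and COL6A3. A chain was called where the authors tested it, its FPKM was at least 1 in a group and the q-value in the authors' deposited table was below 0.05. By that rule 6 of 30 tested chains (20.0%) were called higher on 400Pa by the authors' deposited table, where the same call was made for 1.08% of all 18225 tested loci. No chain was called higher on 60kPa, against 0.252% of all tested loci in the authors' deposited table. With p below 0.05 before adjustment the authors' deposited table listed 9 of the 30 chains, 7 higher on 400Pa and 2 higher on 60kPa. That limit was passed by 5.93% of all tested loci, both directions together.

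Summed over the 44 chains, collagen FPKM was 511 on 400Pa and 374 on 60kPa at day 3.5. At day 0 it was 236 on 400Pa and 245 on 60kPa; the tables of the 2 days were made separately, so levels of different days are set side by side and not tested. These sums are 0.0226% and 0.0163% of the summed FPKM of all loci on 400Pa and 60kPa at day 3.5, and 0.0119% and 0.0129% on 400Pa and 60kPa at day 0. Chains at 10 FPKM or more numbered 16 on 400Pa and 12 on 60kPa at day 3.5, with 7 on each gel at day 0.

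**Figure D1:**
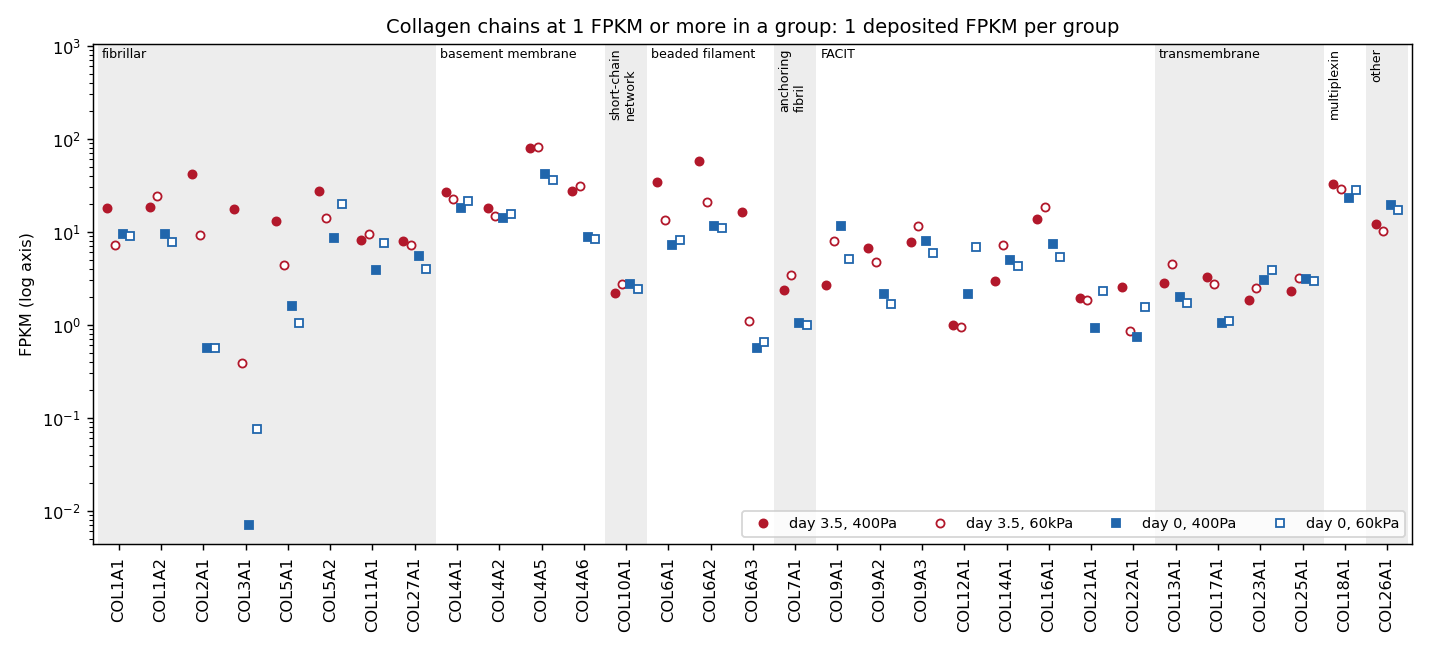
FPKM (log axis) of the 31 collagen chains that reached 1 FPKM in a group, ordered by collagen class (shaded bands), with 1 point per group and no error bar because 1 value per group was deposited. COL3A1 was at 17.7 FPKM on 400Pa and 0.388 FPKM on 60kPa at day 3.5, while COL4A5 lay between 36.1 and 81.3 FPKM in every group.

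Among the fibrillar chains, COL3A1 showed the widest gap between the gels. COL3A1, the single chain of type III collagen of skin, vessels and early connective tissue, had 17.7 FPKM on 400Pa and 0.388 FPKM on 60kPa at day 3.5. At day 0 it had 0.00694 FPKM on 400Pa and 0.0760 FPKM on 60kPa, so it was near 0 in 3 of the 4 groups. Changes are given as log2((FPKM + 1) on 400Pa / (FPKM + 1) on 60kPa), which understates the change of low genes, with a standard error (SE) implied by the authors' statistic for the ratio before any pseudocount is added. The COL3A1 change was 3.75 (SE 1.93), with q = 0.00783 in the authors' deposited table. This q belongs to p = 5e-05, the smallest p of the authors' test at day 3.5. COL2A1, COL5A1 and COL6A3 below have the same p and q, so these values do not rank the chains. Without a pseudocount the FPKM ratio of 400Pa over 60kPa was 45.6. The gene (chr2:189839046-189877472, hg19) also holds the small RNA genes MIR1245A, MIR1245B and MIR3606, whose part in its value was not tested.

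COL2A1, the chain of cartilage type II collagen, which embryos also make in other tissues, had 41.5 FPKM on 400Pa and 9.18 FPKM on 60kPa at day 3.5. At day 0 it had 0.564 FPKM on 400Pa and 0.556 FPKM on 60kPa, too low to be tested by the authors. The day 3.5 change was 2.06 (SE 0.77), with q = 0.00783 in the authors' deposited table (chr12:48366551-48398917, hg19). COL2A1 was thus high on both gels after induction relative to day 0, and the soft gel carried 4.51 times the FPKM of the stiff gel.

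COL5A1, a chain of type V collagen that is known to start fibril assembly, had 12.9 FPKM on 400Pa and 4.42 FPKM on 60kPa at day 3.5. Its day 0 values were 1.57 FPKM on 400Pa and 1.03 FPKM on 60kPa. The day 3.5 change was 1.36 (SE 0.73), with q = 0.00783 in the authors' deposited table (chr9:137533620-137736686, hg19). An antisense gene, COL5A1-AS1, lies in the same interval, and without a stated strand setting their reads cannot be told apart.

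COL5A2, its partner chain, was not called on either day, and its values leaned opposite ways on the 2 days. It had 27.1 FPKM on 400Pa and 14.1 FPKM on 60kPa at day 3.5, and 8.43 FPKM on 400Pa and 19.6 FPKM on 60kPa at day 0. The day 3.5 change was 0.89 (SE 0.65), with p = 0.00405 and q = 0.192 in the authors' deposited table. The day 0 change was -1.12 (SE 0.48), with p = 0.0001 and q = 0.0696 in the authors' deposited table. COL5A2 lies 19149 bases from COL3A1 on chromosome 2 of hg19 and holds the small RNA gene MIR3129.

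Type I collagen, the main fibril of bone, tendon and skin, is built from COL1A1 and COL1A2. COL1A1 had 17.8 FPKM on 400Pa and 7.15 FPKM on 60kPa at day 3.5, with 9.32 FPKM on 400Pa and 8.95 FPKM on 60kPa at day 0. COL1A2 had 18.2 FPKM on 400Pa and 24.2 FPKM on 60kPa at day 3.5, with 9.45 FPKM on 400Pa and 7.75 FPKM on 60kPa at day 0. Neither was called: the day 3.5 change was 1.20 (SE 1.18) for COL1A1 and -0.40 (SE 0.73) for COL1A2, with p = 0.116 and p = 0.273 in the authors' deposited table. The ratio of COL1A1 over COL1A2 FPKM was 0.977 on 400Pa and 0.295 on 60kPa at day 3.5, against 0.986 on 400Pa and 1.16 on 60kPa at day 0. The type I heterotrimer holds more COL1A1 than COL1A2 chains, and the day 3.5 stiff group stood apart with the lowest ratio; these ratios were not tested.

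COL11A1 and COL27A1, the other fibrillar chains above 1 FPKM, were close between the gels at day 3.5. COL11A1, a chain that helps set fibril diameter in cartilage, had 8.02 FPKM on 400Pa and 9.32 FPKM on 60kPa at day 3.5, and 3.90 FPKM on 400Pa and 7.53 FPKM on 60kPa at day 0. COL27A1, a fibrillar chain of cartilage, had 7.97 FPKM on 400Pa and 7.25 FPKM on 60kPa at day 3.5, and 5.46 FPKM on 400Pa and 3.96 FPKM on 60kPa at day 0. COL5A3, COL11A2 and COL24A1 stayed under 1 FPKM in every group. Over the 8 fibrillar chains tested at day 3.5, 6 changes lay above 0 and 2 below, with a median of 1.05 beside 0.02 over all tested loci. Against COL11A1, COL2A1 had an FPKM ratio of 5.17 on 400Pa and 0.985 on 60kPa at day 3.5, with of 0.145 on 400Pa and 0.0738 on 60kPa at day 0.

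All 3 type VI chains at 1 FPKM or more were called higher on the soft gel at day 3.5 in the authors' deposited table. The COL6A1, COL6A2 and COL6A3 chains form a trimer whose assembly depends on having each of them, and the filaments lie around muscle, nerve and connective tissue cells. COL6A1 had 33.8 FPKM on 400Pa and 13.2 FPKM on 60kPa at day 3.5, with 7.12 FPKM on 400Pa and 8.18 FPKM on 60kPa at day 0. Its day 3.5 change was 1.29 (SE 0.49), with q = 0.0189 in the authors' deposited table (chr21:47401651-47424964, hg19).

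COL6A2 had 57.3 FPKM on 400Pa and 20.7 FPKM on 60kPa at day 3.5, and 11.4 FPKM on 400Pa and 10.96 FPKM on 60kPa at day 0. It was the second most abundant collagen chain on the soft gel at day 3.5. The change was 1.43 (SE 0.80), with q = 0.0139 in the authors' deposited table (chr21:47518011-47552764, hg19). Its statistic of -1.83 in the authors' deposited table, which runs from 400Pa to 60kPa, would miss 0.05 in a two-sided normal test, so the call and the implied error do not go together. COL6A2 is 1 of 36 such loci among the 227 called at day 3.5 with a finite statistic in the authors' deposited table. COL6A1 and COL6A2 are neighbours on chromosome 21, with 93046 bases between them.

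COL6A3, the largest of the type VI chains, had 16.2 FPKM on 400Pa and 1.08 FPKM on 60kPa at day 3.5, and 0.558 FPKM on 400Pa and 0.643 FPKM on 60kPa at day 0. The change was 3.04 (SE 1.12), with q = 0.00783 in the authors' deposited table (chr2:238232646-238323018, hg19). COL6A3 was thus low in 3 groups and high in induced cells on the soft gel. At the stricter limit of q below 0.01, COL6A1 and COL6A2 were no longer called in the authors' deposited table, and COL6A3 was.

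The balance between the type VI chains differed more for COL6A3 than for the neighbouring pair. COL6A1 over COL6A2 was 0.590 on 400Pa and 0.638 on 60kPa at day 3.5, with 0.623 on 400Pa and 0.746 on 60kPa at day 0, as FPKM ratios. COL6A3 over COL6A1 was 0.478 on 400Pa and 0.0819 on 60kPa at day 3.5, with 0.0784 on 400Pa and 0.0787 on 60kPa at day 0. The soft group at day 3.5 therefore held the highest COL6A3 share, and the other 3 groups lay together; the ratios were not tested. The alternatives to COL6A3 were low. COL6A5 stayed under 0.2 FPKM, and COL6A6 reached 0.996 FPKM on 400Pa and 0.437 FPKM on 60kPa at day 3.5. COL6A6 was just under the minimum for a call. The authors' deposited table did test it, with p = 0.0258 and q = 0.630, so it would not be called without that minimum either.

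**Figure D2:**
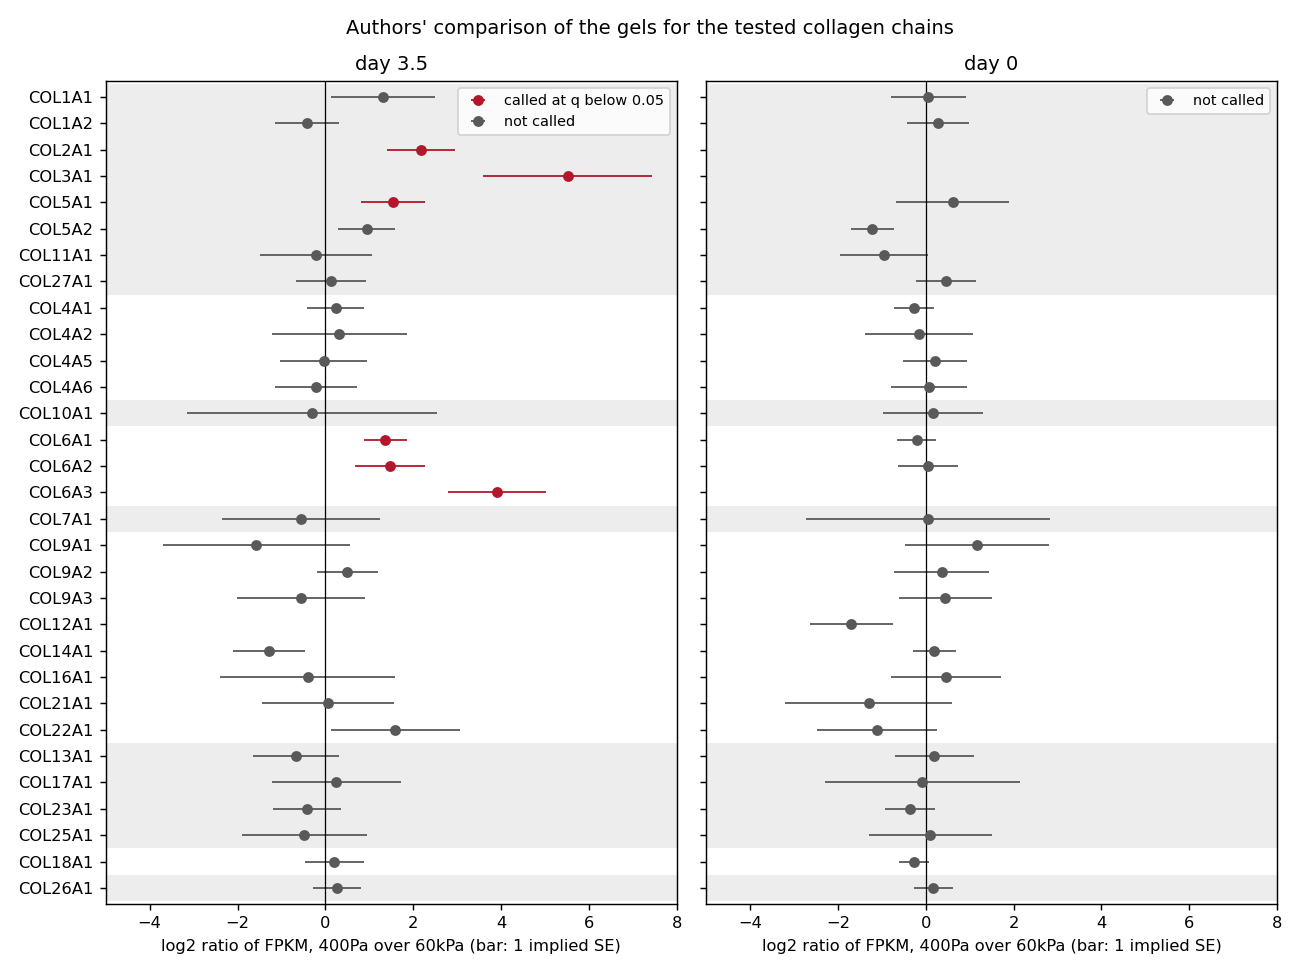
Log2 ratio of FPKM on 400Pa over 60kPa from the authors' deposited tables for the tested collagen chains, at day 3.5 (left, 30 chains) and day 0 (right, 28 chains), with bars of 1 implied SE and called chains in red. The 6 called chains lie right of 0 at day 3.5, from COL6A1 to COL3A1, and no chain is called at day 0.

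Upstream windows were examined because the called chains moved together at day 3.5. A RefSeq window (build GRCh38.p14) runs from 250 bases before to 50 bases after a gene's start. In the set of windows used here 32 of the 44 chains had at least 1. That set held none for the called chains COL2A1, COL3A1 and COL6A1, which were therefore not examined. The windows of COL6A2, COL6A3 and COL5A1 are given 5′ to 3′ on the gene's strand. Capitals mark the letters GGGCGG and the letters TATAAA on either strand.
COL6A2 (chr21:46097862-46098161, plus strand): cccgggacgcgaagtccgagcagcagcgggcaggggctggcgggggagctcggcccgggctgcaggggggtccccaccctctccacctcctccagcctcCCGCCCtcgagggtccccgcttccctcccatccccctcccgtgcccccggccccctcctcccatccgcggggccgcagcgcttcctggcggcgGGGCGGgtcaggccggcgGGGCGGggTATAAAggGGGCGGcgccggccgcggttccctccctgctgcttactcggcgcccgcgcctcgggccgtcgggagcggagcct
COL6A3 (chr2:237414115-237414414, minus strand): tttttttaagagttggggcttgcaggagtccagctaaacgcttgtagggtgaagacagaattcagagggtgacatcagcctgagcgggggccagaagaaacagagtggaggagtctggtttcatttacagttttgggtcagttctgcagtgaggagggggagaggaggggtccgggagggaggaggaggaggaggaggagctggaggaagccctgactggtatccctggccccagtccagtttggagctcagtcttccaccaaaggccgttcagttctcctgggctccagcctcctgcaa
COL5A1 (chr9:134641553-134641852, plus strand): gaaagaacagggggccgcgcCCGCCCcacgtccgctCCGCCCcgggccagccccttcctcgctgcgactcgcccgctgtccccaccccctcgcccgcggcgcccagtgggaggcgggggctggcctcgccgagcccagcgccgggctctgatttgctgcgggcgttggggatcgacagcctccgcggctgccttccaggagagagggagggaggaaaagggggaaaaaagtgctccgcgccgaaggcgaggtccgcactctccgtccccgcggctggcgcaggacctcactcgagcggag
The COL6A2 window held 4 GGGCGG and 1 TATAAA, the COL5A1 window held 2 GGGCGG, and the COL6A3 window held neither motif nor CCAAT. Over both strands GGGCGG stood in 54.5% of the 44 collagen windows and 45.0% of all 35116 windows of that length, TATAAA in 18.2% and 11.5%, and CCAAT in 31.8% and 34.6%. The median GC content was 63.7% in the collagen windows and 58.7% in all windows. COL6A2 and COL6A3 thus had unlike windows, while that of COL6A1 was not seen. A match of letters is a description, not a binding site.

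Basement membrane chains had the largest summed FPKM of any class in 3 of the 4 groups, and none was called. COL4A5 was the collagen chain with the highest FPKM in each of the 4 groups, with 79.0 FPKM on 400Pa and 81.3 FPKM on 60kPa at day 3.5, and 41.7 FPKM on 400Pa and 36.1 FPKM on 60kPa at day 0. COL4A5 pairs with COL4A6 in smooth muscle and epithelial basement membranes and with COL4A3 and COL4A4 in the kidney filter. COL4A6 had 27.04 FPKM on 400Pa and 31.2 FPKM on 60kPa at day 3.5, and 8.77 FPKM on 400Pa and 8.31 FPKM on 60kPa at day 0. COL4A3 and COL4A4 stayed under 0.5 FPKM in every group, so of the partners of COL4A5 only COL4A6 reached 1 FPKM.

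COL4A1 and COL4A2, the pair found in nearly all basement membranes, were close between gels as well. COL4A1 had 26.4 FPKM on 400Pa and 22.5 FPKM on 60kPa at day 3.5, and 17.9 FPKM on 400Pa and 21.5 FPKM on 60kPa at day 0. COL4A2 had 18.1 FPKM on 400Pa and 14.5 FPKM on 60kPa at day 3.5, and 14.0 FPKM on 400Pa and 15.6 FPKM on 60kPa at day 0. Over the 4 tested type IV chains at day 3.5 the median change was 0.09, with 2 above 0 and 2 below and a range of -0.20 to 0.29. COL4A2 had the largest of these (0.29, SE 1.54), so its change was smaller than its error.

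The type IV genes stand in head-to-head pairs, of which COL4A1 with COL4A2 and COL4A5 with COL4A6 were expressed above 1 FPKM. COL4A1 over COL4A2 was 1.46 on 400Pa and 1.55 on 60kPa at day 3.5, with 1.28 on 400Pa and 1.38 on 60kPa at day 0, as FPKM ratios. COL4A5 over COL4A6 was 2.92 on 400Pa and 2.60 on 60kPa at day 3.5, with 4.76 on 400Pa and 4.35 on 60kPa at day 0. The deposited tables give each of these pairs 1 common interval on hg19, while COL4A4 and COL4A3 have separate intervals 451 bases apart. RefSeq (GRCh38.p14) places the starts of COL4A2 and COL4A1 127 bases apart and those of COL4A5 and COL4A6 380 bases apart, so their upstream windows overlap. COL4A6 also has another window, which was not compared here. The starts of COL4A3 and COL4A4 are 419 bases apart, and their windows share 82 bases. The shared stretches of the pairs above 1 FPKM follow 5′ to 3′ on the plus strand. Capitals mark the letters CCAAT and the letters GGGCGG on either strand.
COL4A2 and COL4A1 (chr13:110307108-110307333): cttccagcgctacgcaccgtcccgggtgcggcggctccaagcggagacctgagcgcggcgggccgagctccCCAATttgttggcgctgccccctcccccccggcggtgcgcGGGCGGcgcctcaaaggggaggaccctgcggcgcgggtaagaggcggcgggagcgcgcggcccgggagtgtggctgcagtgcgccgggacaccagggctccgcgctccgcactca
COL4A5 and COL4A6 (chrX:108439588-108439708): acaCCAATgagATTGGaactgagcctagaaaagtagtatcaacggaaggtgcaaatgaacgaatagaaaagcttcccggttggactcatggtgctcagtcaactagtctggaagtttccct
The first stretch of 226 bases held 1 CCAAT and 1 GGGCGG, and the second of 121 bases held 2 CCAAT, 1 on each strand.

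**Figure D3:**
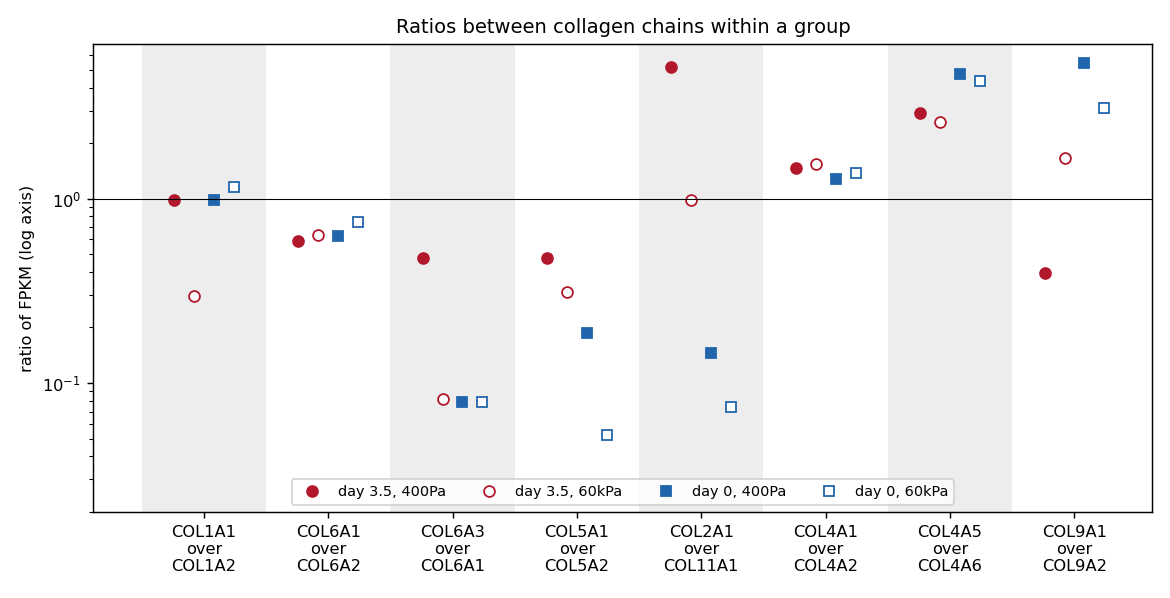
Ratio of FPKM (log axis) between chains of the same or related collagens within each of the 4 groups, with 1 point per group. COL6A3 over COL6A1 was 0.478 on 400Pa at day 3.5 and at most 0.0819 in the other groups, while COL4A1 over COL4A2 stayed between 1.28 and 1.55.

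None of the 7 tested FACIT chains was called at day 3.5, and 4 of their changes lay below 0. COL9A1, COL9A2 and COL9A3 make up type IX collagen on the surface of cartilage fibrils. COL9A1 had 2.65 FPKM on 400Pa and 7.89 FPKM on 60kPa at day 3.5, and 11.6 FPKM on 400Pa and 5.12 FPKM on 60kPa at day 0. The day 3.5 change was -1.28 (SE 2.12), with p = 0.0474 and q = 0.874 in the authors' deposited table. COL9A2 had 6.72 FPKM on 400Pa and 4.75 FPKM on 60kPa at day 3.5, and 2.12 FPKM on 400Pa and 1.65 FPKM on 60kPa at day 0. COL9A3 had 7.76 FPKM on 400Pa and 11.4 FPKM on 60kPa at day 3.5, and 8.004 FPKM on 400Pa and 5.87 FPKM on 60kPa at day 0. COL9A1 over COL9A2 was 0.394 on 400Pa and 1.66 on 60kPa at day 3.5, with 5.46 on 400Pa and 3.10 on 60kPa at day 0, so COL9A1 was the lower of the pair in 1 group of 4.

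COL14A1, a FACIT chain of tendon and skin fibrils, had 2.96 FPKM on 400Pa and 7.17 FPKM on 60kPa at day 3.5, and 4.89 FPKM on 400Pa and 4.29 FPKM on 60kPa at day 0. Its day 3.5 change was -1.04 (SE 0.82), with p = 0.0158 and q = 0.467 in the authors' deposited table. COL12A1, a related chain of tendon and ligament, had 0.997 FPKM on 400Pa and 0.942 FPKM on 60kPa at day 3.5, and 2.11 FPKM on 400Pa and 6.84 FPKM on 60kPa at day 0. Its day 0 change was -1.33 (SE 0.94), with p = 0.00335 and q = 0.960 in the authors' deposited table. COL16A1, a chain of thin fibrils, was the most abundant FACIT chain at day 3.5, with 13.8 FPKM on 400Pa and 18.2 FPKM on 60kPa, beside 7.41 FPKM on 400Pa and 5.35 FPKM on 60kPa at day 0. COL22A1, a chain of tissue junctions such as that of muscle and tendon, had 2.55 FPKM on 400Pa and 0.846 FPKM on 60kPa at day 3.5, and 0.729 FPKM on 400Pa and 1.56 FPKM on 60kPa at day 0. COL21A1 had 1.91 FPKM on 400Pa and 1.84 FPKM on 60kPa at day 3.5, and 0.922 FPKM on 400Pa and 2.27 FPKM on 60kPa at day 0. COL19A1 and COL20A1 stayed under 1 FPKM in every group, COL19A1 reaching 0.640 FPKM on 400Pa at day 3.5.

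The transmembrane chains were low and none was called on either day. COL13A1, found at cell adhesion sites, had 2.78 FPKM on 400Pa and 4.44 FPKM on 60kPa at day 3.5, and 1.97 FPKM on 400Pa and 1.71 FPKM on 60kPa at day 0. COL17A1, part of the hemidesmosomes that fix epithelia to the basement membrane, had 3.28 FPKM on 400Pa and 2.76 FPKM on 60kPa at day 3.5, and 1.03 FPKM on 400Pa and 1.09 FPKM on 60kPa at day 0. COL23A1 had 1.85 FPKM on 400Pa and 2.47 FPKM on 60kPa at day 3.5, and 3.03 FPKM on 400Pa and 3.87 FPKM on 60kPa at day 0. COL25A1, a collagen of neurons, had 2.30 FPKM on 400Pa and 3.20 FPKM on 60kPa at day 3.5, and 3.12 FPKM on 400Pa and 2.91 FPKM on 60kPa at day 0. The largest of their day 3.5 changes was that of COL13A1 (-0.53, SE 0.98).

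Of the remaining classes, COL18A1 was among the 5 most abundant collagen chains in every group. COL18A1, a basement membrane collagen with sugar chains that releases endostatin, had 32.7 FPKM on 400Pa and 28.4 FPKM on 60kPa at day 3.5, and 23.1 FPKM on 400Pa and 27.9 FPKM on 60kPa at day 0. COL26A1 had 12.0 FPKM on 400Pa and 10.03 FPKM on 60kPa at day 3.5, and 19.2 FPKM on 400Pa and 17.0 FPKM on 60kPa at day 0. COL7A1, the anchoring fibril of skin, had 2.33 FPKM on 400Pa and 3.43 FPKM on 60kPa at day 3.5, and 1.04 FPKM on 400Pa and 0.9997 FPKM on 60kPa at day 0. COL10A1, the collagen of hypertrophic cartilage, had 2.19 FPKM on 400Pa and 2.72 FPKM on 60kPa at day 3.5, and 2.73 FPKM on 400Pa and 2.43 FPKM on 60kPa at day 0. The largest day 3.5 change among these 4 chains was that of COL7A1 (-0.41, SE 1.80), within its error. COL8A1, COL8A2, COL15A1 and COL28A1 stayed under 1 FPKM in every group. The chains whose highest group value lay between 0.5 and 2 FPKM were COL6A6, COL8A1, COL8A2, COL11A2 and COL19A1.

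Summed by class, the fibrillar chains had 152 FPKM on 400Pa and 77.1 FPKM on 60kPa at day 3.5, and 39.6 FPKM on 400Pa and 50.2 FPKM on 60kPa at day 0. The beaded filament chains had 108 FPKM on 400Pa and 35.5 FPKM on 60kPa at day 3.5, and 19.4 FPKM on 400Pa and 20.0 FPKM on 60kPa at day 0. The basement membrane chains had 151 FPKM on 400Pa and 150.1 FPKM on 60kPa at day 3.5, and 82.7 FPKM on 400Pa and 82.3 FPKM on 60kPa at day 0. At day 3.5 the gap in summed collagen FPKM between the gels thus lay in the fibrillar and beaded filament classes, while the basement membrane sum was nearly level. The FACIT sum ran the other way, with 40.1 FPKM on 400Pa and 53.4 FPKM on 60kPa at day 3.5, and 37.9 FPKM on 400Pa and 33.0 FPKM on 60kPa at day 0. As a share of collagen FPKM, beaded filament chains made up 21.2% on 400Pa and 9.48% on 60kPa at day 3.5, with 8.21% on 400Pa and 8.16% on 60kPa at day 0. These sums weigh the abundant chains most and were not tested.

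**Figure D4:**
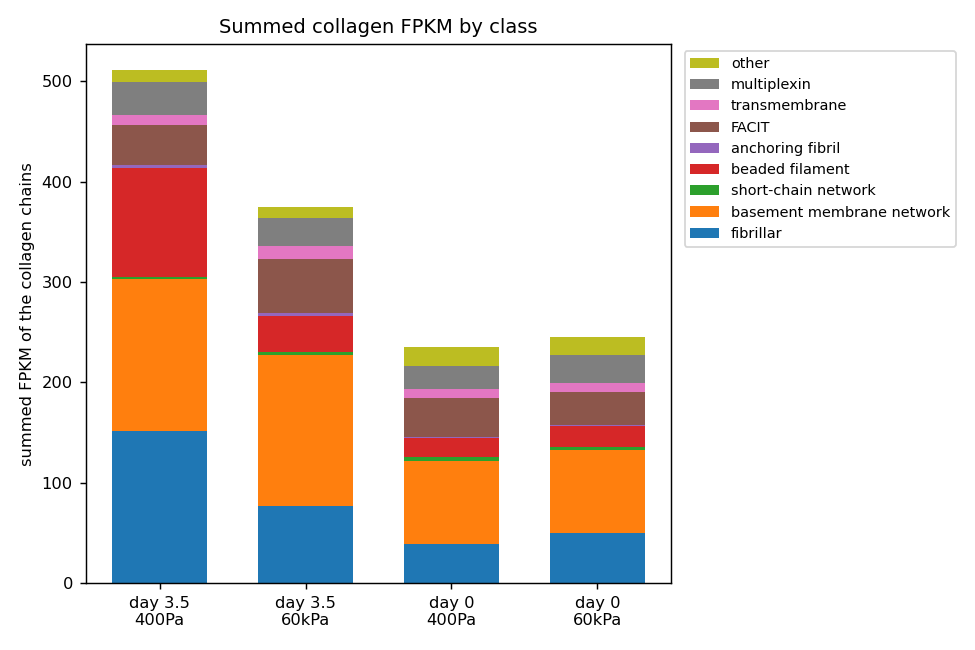
Summed FPKM of the 44 collagen chains by class in each group (stacked bars, 1 value per group, no error). The sum is 511 FPKM on 400Pa and 374 FPKM on 60kPa at day 3.5, and 236 FPKM on 400Pa and 245 FPKM on 60kPa at day 0.

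At day 0, before induction, no collagen chain was called between the gels. The authors' deposited table had 0 of 28 tested chains higher on 400Pa and 0 on 60kPa, beside 0.0635% and 0.0751% of all 17315 tested loci. With p below 0.05 before adjustment the authors' deposited table listed 2 of the 28, COL5A2 and COL12A1, both with higher FPKM on 60kPa. The same limit was passed by 1.86% of all tested loci, both directions together. Over the 28 chains 17 changes lay above 0 and 11 below, with a median of 0.06 beside 0.02 over all tested loci. COL3A1, COL2A1 and COL6A3 were among the 16 chains too low for a test at day 0.

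The difference between the days in the effect of the gel was itself compared from both log2 ratios and their implied errors, by a normal approximation with Benjamini-Hochberg adjustment over 15322 loci. Of 27 chains that could be compared, 0 passed, beside 0.0718% of all loci, and the smallest adjusted p among the chains was 0.999979. Before adjustment 2 chains had p below 0.05, beside 0.894% of all loci. COL5A2 had a difference of 2.15 (day 3.5 minus day 0, SE 0.81) and COL6A1 one of 1.56 (SE 0.66). Not one of these chains is therefore shown to respond differently to the gel on the 2 days, and COL3A1, COL2A1 and COL6A3 had no day 0 test to compare with. The share of 0.894% lies well under the limit of p below 0.05. The implied errors are thus wide for this test, and real differences could be missed.

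Levels at day 3.5 beside day 0 were then compared on each gel, as log2((FPKM + 1) at day 3.5 / (FPKM + 1) at day 0), and not tested since each day has its own table. On the soft gel 11 of 31 chains (35.5%) were higher by at least 2-fold, beside 9.61% of all loci, and 1 chain was lower, beside 5.99% of all loci. On the stiff gel 9 of 30 chains (30.0%) were higher, beside 6.71%, and 1 was lower, beside 4.22%. The median change of the chains was 0.81 on 400Pa and 0.58 on 60kPa, beside 0.00 over all loci on each gel.

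COL2A1 had the largest change on both gels, 4.76 on 400Pa and 2.71 on 60kPa. COL3A1 was higher by 4.21 on 400Pa and by 0.37 on 60kPa, and COL6A3 by 3.46 on 400Pa and by 0.34 on 60kPa. COL5A1 was higher by 2.43 on 400Pa and 1.42 on 60kPa, COL6A2 by 2.23 on 400Pa and 0.86 on 60kPa, and COL6A1 by 2.10 on 400Pa and 0.63 on 60kPa. The 6 chains called between the gels at day 3.5 are thus those with the 6 largest changes on the soft gel, a comparison that shares the soft day 3.5 group.

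COL4A5, COL4A6 and the FACIT chain COL9A2 were higher at day 3.5 on both gels, and COL4A1 and COL4A2 less so. COL4A6 was higher by 1.52 on 400Pa and 1.79 on 60kPa, COL4A5 by 0.91 on 400Pa and 1.15 on 60kPa, and COL9A2 by 1.31 on 400Pa and 1.12 on 60kPa. COL4A1 had changes of 0.54 on 400Pa and 0.06 on 60kPa, and COL4A2 of 0.35 on 400Pa and -0.09 on 60kPa. COL1A2 was higher by 0.88 on 400Pa and 1.53 on 60kPa, and COL16A1 by 0.81 on 400Pa and 1.60 on 60kPa. The chain past 2-fold in the other direction was COL9A1 on the soft gel, with -1.79 on 400Pa and 0.54 on 60kPa. On the stiff gel it was COL12A1, with -0.64 on 400Pa and -2.01 on 60kPa.

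**Figure D5:**
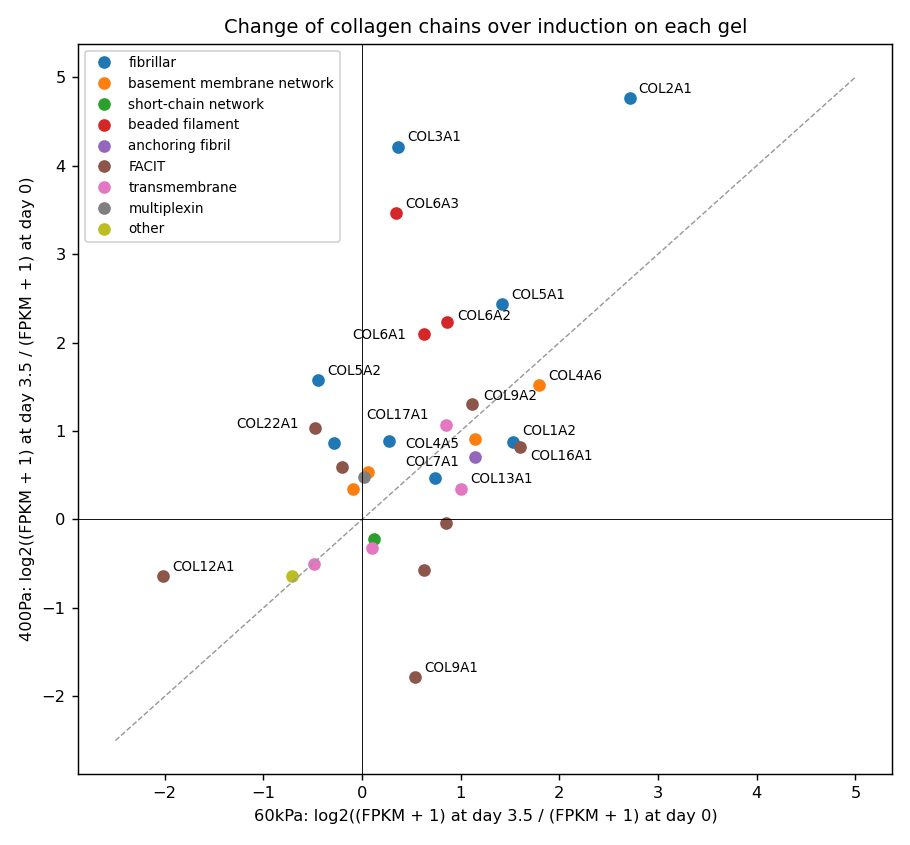
Change of each collagen chain at 1 FPKM or more at day 3.5 relative to day 0 on 400Pa (y axis) and on 60kPa (x axis), both as log2((FPKM + 1) ratio), coloured by class, with chains past 2-fold on a gel named and the line of equal change dashed. COL3A1 and COL6A3 lie at 4.21 and 3.46 on 400Pa and under 0.5 on 60kPa, and COL4A6 lies near the line.

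Genes that process collagen were then examined as lists. Of 13 tested prolyl and lysyl modification genes, which hydroxylate chains so that helices are stable and can be crosslinked, 0 were called either way at day 3.5 by the authors' deposited table. Their median change was 0.30 with 11 above 0, beside 0.02 over all tested loci, and they summed to 873 FPKM on 400Pa and 624 FPKM on 60kPa. P4HB, the shared subunit of prolyl hydroxylase, had 177 FPKM on 400Pa and 144 FPKM on 60kPa at day 3.5. P4HA1, its catalytic subunit, had 67.2 FPKM on 400Pa and 60.8 FPKM on 60kPa. PPIB, a proline isomerase that speeds helix folding, had 257 FPKM on 400Pa and 160 FPKM on 60kPa, and CRTAP, a partner in the same complex, had 98.4 FPKM on 400Pa and 84.2 FPKM on 60kPa. PLOD2, the hydroxylase of crosslinking lysines and chosen after its values were seen, had 74.9 FPKM on 400Pa and 26.4 FPKM on 60kPa, a change of 1.47 (SE 0.77) with q = 0.166 in the authors' deposited table.

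Folding and export genes were not called either. Of 11 tested, 0 were called by the authors' deposited table at day 3.5, 9 changes lay above 0 and the median was 0.22. SERPINH1, the collagen chaperone HSP47, had 233 FPKM on 400Pa and 157 FPKM on 60kPa at day 3.5. SPARC, a collagen-binding matrix protein, had 2639 FPKM on 400Pa and 868 FPKM on 60kPa, a change of 1.60 (SE 2.28), and accounts for most of the list's sum of 3362 FPKM on 400Pa and 1503 FPKM on 60kPa. PDIA3, a disulfide isomerase, had 247 FPKM on 400Pa and 241 FPKM on 60kPa, and SEC23A, a coat protein of export vesicles, had 74.6 FPKM on 400Pa and 63.9 FPKM on 60kPa. SPARC was thus wide apart between the gels by level and within its error.

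Of 6 tested propeptide processing genes 0 were called by the authors' deposited table at day 3.5, with a median of 0.16 and 4 above 0. PCOLCE2 and PCOLCE, enhancers of C-propeptide removal, had 26.6 and 16.1 FPKM on 400Pa and 23.2 and 14.0 FPKM on 60kPa. BMP1, the protease itself, had 3.85 FPKM on 400Pa and 3.95 FPKM on 60kPa, and ADAMTS3, an N-propeptide protease, had 2.21 FPKM on 400Pa and 2.24 FPKM on 60kPa. Of 4 tested lysyl oxidase genes, which crosslink fibrils, 0 were called in the authors' deposited table, with a median of 0.44 and 4 above 0. LOXL1 had 16.3 FPKM on 400Pa and 13.1 FPKM on 60kPa, LOXL3 had 10.7 FPKM on 400Pa and 9.45 FPKM on 60kPa, LOX had 4.01 FPKM on 400Pa and 1.09 FPKM on 60kPa (change 1.26, SE 2.09), and LOXL4 had 1.04 FPKM on 400Pa and 0.348 FPKM on 60kPa.

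Among 5 tested collagen receptors 1 was called higher on 400Pa by the authors' deposited table at day 3.5, beside 1.08% of all tested loci. The median change was 0.39, with 4 above 0. DDR2, a receptor kinase for fibrillar collagens, had 2.70 FPKM on 400Pa and 0.346 FPKM on 60kPa at day 3.5, and 0.931 FPKM on 400Pa and 0.653 FPKM on 60kPa at day 0. Its change was 1.46 (SE 1.82), with q = 0.0436 in the authors' deposited table and a statistic (-1.63) that again would miss 0.05 in a two-sided normal test. DDR1, the related kinase of epithelia, had 32.9 FPKM on 400Pa and 47.2 FPKM on 60kPa at day 3.5, and the authors' deposited table did not call it. ITGB1, the integrin chain common to collagen-binding integrins, had 128 FPKM on 400Pa and 97.1 FPKM on 60kPa, and ITGA2, 1 of its collagen-binding partners, had 2.36 FPKM on 400Pa and 1.62 FPKM on 60kPa. MRC2, a receptor that takes up collagen, had 16.3 FPKM on 400Pa and 10.8 FPKM on 60kPa. At day 0 the authors' deposited table called 0 genes of these 5 lists, with list medians between -0.10 and 0.23.

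Marker genes of some cell types were also called higher on 400Pa at day 3.5, a call made for 1.08% of all tested loci. Of 9 tested mesoderm markers, 5 were higher on 400Pa and 0 on 60kPa as called by the authors' deposited table (MEIS1, HAND1, ISL1, TBX3 and FOXF1). The list summed to 256 FPKM on 400Pa and 55.9 FPKM on 60kPa at day 3.5, and to 10.7 FPKM on 400Pa and 14.2 FPKM on 60kPa at day 0. Of 8 tested fibroblast and mesenchyme markers, LUM, DCN, PRRX1 and TWIST1 were higher on 400Pa and 0 on 60kPa as called by the authors' deposited table, where the PRRX1 statistic of -1.86 would miss 0.05 in a two-sided normal test. Over that list 6 changes lay above 0, FBLN1 being nearly level at 0.04, while THY1 (-0.07) and PDGFRB (-0.34) lay below. The list summed to 254 FPKM on 400Pa and 66.7 FPKM on 60kPa at day 3.5. LUM alone had 136 FPKM on 400Pa and 4.69 FPKM on 60kPa. At day 0 the list summed to 153 FPKM on 400Pa and 210 FPKM on 60kPa. There LUM and DCN were under 0.1 FPKM and THY1 made up most of the sum. Of 8 tested amnion and trophoblast markers, 4 were higher on 400Pa and 0 on 60kPa as called by the authors' deposited table, with HAND1 shared with the mesoderm list, and they summed to 214 FPKM on 400Pa and 45.6 FPKM on 60kPa. The part of these markers in the collagen differences was not tested.

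Of 6 chondrocyte markers, set beside the cartilage collagens COL2A1 and COL9A1, HAPLN1 was high while ACAN, MATN1 and COMP stayed under 1 FPKM. HAPLN1, a link protein of cartilage and embryonic matrix, had 825 FPKM on 400Pa and 319 FPKM on 60kPa at day 3.5 and made up nearly the whole chondrocyte list sum of 836 FPKM on 400Pa and 326 FPKM on 60kPa, beside 12.6 FPKM on 400Pa and 8.40 FPKM on 60kPa at day 0. SOX9, the cartilage regulator, had 5.48 FPKM on 400Pa and 3.95 FPKM on 60kPa, and MATN3 had 4.64 FPKM on 400Pa and 2.54 FPKM on 60kPa. ACAN, the aggrecan core protein, had 0.574 FPKM on 400Pa and 0.320 FPKM on 60kPa, and MATN1 and COMP were under 0.2 FPKM in every group. None of the 3 tested chondrocyte markers was called in the authors' deposited table.

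The other marker lists differed in direction. Of all tested loci, 0.252% were called higher on 60kPa at day 3.5. Of 8 pluripotency markers, 0 were higher on 400Pa and 1, PRDM14, on 60kPa as called by the authors' deposited table, and the list summed to 415 FPKM on 400Pa and 695 FPKM on 60kPa at day 3.5, with POU5F1 at 114 FPKM on 400Pa and 122 FPKM on 60kPa. Of 5 tested neuroectoderm markers, OTX2, HESX1 and LHX5 were called higher on 60kPa by the authors' deposited table. PAX6 had 17.2 FPKM on 400Pa and 19.6 FPKM on 60kPa, and was not called. Nor was NES, with 26.8 FPKM on 400Pa and 23.8 FPKM on 60kPa. The neuroectoderm list summed to 123 FPKM on 400Pa and 261 FPKM on 60kPa. Of 4 endoderm markers 0 were called in the authors' deposited table, with sums of 26.9 FPKM on 400Pa and 37.8 FPKM on 60kPa. Of 3 endothelial markers, VWF was called higher on 60kPa by the authors' deposited table (statistic 1.78, which would miss 0.05 in that normal test). The others, TEK (0.47) and TIE1 (0.05), had changes above 0 and were not called. The list summed to 8.58 FPKM on 400Pa and 11.5 FPKM on 60kPa, of which VWF had 0.873 FPKM on 400Pa and 6.12 FPKM on 60kPa. Of 3 smooth muscle markers 0 were called in the authors' deposited table at day 3.5, with sums of 64.0 FPKM on 400Pa and 44.0 FPKM on 60kPa and a median change of 0.65, 3 of 3 above 0. At day 0 the authors' deposited table called TFAP2A, an amnion and trophoblast marker with a statistic of -1.20 that would also miss it, higher on 400Pa and TAGLN, a smooth muscle marker at 195 FPKM on 400Pa and 490 FPKM on 60kPa, higher on 60kPa.

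Many of the collagen messages hold a short sequence that the choice of genes did not use. The miR-29 family is a set of small RNAs known to bind collagen messages through its seed, bases 2 to 8, in capitals 5′ to 3′ in the RefSeq mature sequences, which share that seed. The family itself was not measured here.
hsa-miR-29a-3p: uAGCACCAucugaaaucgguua
hsa-miR-29b-3p: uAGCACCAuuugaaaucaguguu
hsa-miR-29c-3p: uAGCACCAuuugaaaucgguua
The seed match TGGTGCT was searched on the message strand of 3′ UTRs, in 1 GENCODE 29 transcript per gene. It stood in 27 of 44 collagen chains (61.4%), beside 12.8% of 18927 protein-coding genes. The collagen 3′ UTRs were somewhat longer, with a median of 1042 bases beside 872. In the middle range of their lengths, 13 of 22 chains held a match, beside 12.1% of 4594 genes in that range.

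By class, 10 of 11 fibrillar and 6 of 6 basement membrane chains held a match, beside 5 of 10 FACIT, 3 of 5 beaded filament and 0 of 4 transmembrane chains. Of the 6 chains called at day 3.5, 5 held one, COL6A1 being the exception, while the uncalled type IV chains held one too. The match thus stood in called and uncalled chains, and nothing follows from it about the small RNAs in these cells. COL5A1 held 4 matches and COL3A1 2. The first match in each called chain, with the 15 bases before it, is given with the match in capitals, as DNA letters, and those of COL4A1 and COL1A2 stand beside them as uncalled examples.
COL3A1: ttcaaaatgtctcaaTGGTGCT
COL5A1: taactcaatgaaaatTGGTGCT
COL2A1: gtgtgtcctacacaaTGGTGCT
COL6A3: catgacctatcagtaTGGTGCT
COL6A2: agcccaccccgtccaTGGTGCT
COL4A1: gctaatgtcacaacaTGGTGCT
COL1A2: cttgaagaatgttgaTGGTGCT
The fragments were cut at the match, so its 7 bases are alike by choice, while the 15 bases before it differ from chain to chain.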

How the data were processed

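The deposited tables give, per gene locus and day, 1 FPKM for 400Pa and 1 for 60kPa, which the authors computed using Cufflinks with genome build hg19, per the submitters' processing notes. Beside these stand the authors' log2 ratio (60kPa divided by 400Pa), their p-value and q-value, and their test statistic, a score. Not given in the sources used here are the aligner, versions, annotation, replicate handling and strand setting, and no depth or library value could be checked. Merged loci (1358 at day 3.5, 1325 at day 0) were left whole.

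The foreseen test over libraries was not run because no values per library were used, so calls are the authors' (q below 0.05, FPKM at least 1 in a group). The sign was turned to 400Pa over 60kPa, and a pseudocount of 1 was added for the changes. SE is the authors' log2 ratio, without a pseudocount, over their statistic, taken without sign. Tests were kept within a table. The day difference was tried on simulated data first. The simulation drew normal noise of the implied size, so it could not show whether that approximation holds for these data. Members and lists were chosen with earlier results of these data known. Named genes were each chain at 1 FPKM or more and, of each processing list, the called genes and the 4 highest. The marker lists were named in part, so some of their highest or called genes enter only the counts and sums. List symbols without a row of their own were not analysed here. GENCODE 29 gave 3′ UTRs and held small RNA genes, and RefSeq (GRCh38.p14) gave promoters and miRNAs. Alternatives were pseudocounts, FPKM minimums, thresholds, centring and row choice. The software was matplotlib 3.10.9, scipy 1.17.1, numpy 2.4.6 and pandas 2.3.3 in Python 3.11.15.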

Additional observations from a re-analysis of the deposited data

How the results depend on the processing

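The 6 chains called higher on 400Pa at day 3.5 numbered between 4 and 7 over the alternatives. Of 106 alternative values for single chains, 104 kept the same call or lack of one. COL6A1 and COL6A2 lost theirs at q below 0.01. A pseudocount, centring or row choice could not change a call, which rests on the q-value and the FPKM minimum. Most of the kept calls were therefore fixed in advance and are no support. Kept direction is no result here, because a pseudocount, an FPKM minimum or a threshold cannot turn the sign of a change. For COL3A1 the change was 5.19 with a pseudocount of 0.1. Leaving out chains that hold a small RNA gene moved the median change of the tested chains at day 3.5 to 0.04. With p below 0.05 before adjustment the authors' deposited tables listed 2 chains higher on 60kPa at day 3.5 and 2 at day 0, and at q below 0.1 the day 0 table held 1. That p limit was passed by 5.93% of all tested loci at day 3.5 and 1.86% at day 0, both directions together. Between days on 400Pa, 18 chains were higher at a fold of 1.5 and 6 at a fold of 4, while 3 were lower at a fold of 1.5, 0 at a fold of 4 and 2 with a pseudocount of 0.1. On 60kPa, 15 were higher at a fold of 1.5, 1 at a fold of 4 and 5 with an FPKM minimum of 5, while 2 were lower at a fold of 1.5. No share of all loci was computed for the other q limits, folds, pseudocounts and minimums. The counts at those settings therefore show nothing particular to collagens. No paired analysis was possible because the tables hold 1 value per group, and leaving out a replicate was not run for the same reason. Depth is unknown, and the median implied SE of the chains, 0.99 at day 3.5 and 0.92 at day 0, limits what a difference between gels can show.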
